A study of Mus musculus with 30 samples.

Results

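Large multinucleated osteoclasts grown from the marrow of 20-month-old wild-type mice were set against those grown from 1-month-old wild-type mice, in 6 of the 30 poly(A) RNA sequencing libraries of the series. The 20-month group held 3 libraries (replicates 1, 3 and 4) and the 1-month group held 3 (replicates 1, 3 and 4), taken by their sample labels. All were wild-type C57BL/6J cells: macrophages derived from bone marrow were cultured on slices of bone in α-MEM with fetal bovine serum and with 25 ng/ml of M-CSF and 100 ng/ml of RANKL until large multinucleated cells were present, a stage defined by appearance, with no day given for it. The series asks how age and loss of Terc, the RNA template of telomerase, alter gene expression in osteoclasts on bone. The 3 wild-type large-cell libraries of 6-month-old mice and the 3 Terc-/- large-cell libraries of 1-month-old mice, cultured the same way, are given beside some values for their level. No label states that the 3 libraries of a group came from separate animals or cultures. The p-values therefore measure only the spread between libraries of a group, which may be technical. That spread was estimated over all 10 groups of the series, 30 libraries, and not from these 6 alone. The cultures are bulk samples and the labels do not say that osteoclasts were purified from the macrophages and other marrow cells of the same well.

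Osteoclasts are the cells that dissolve bone. M-CSF keeps their macrophage precursors alive, RANKL binds its receptor RANK (Tnfrsf11a) and drives the transcription factor NFATc1, the precursors fuse, and the fused cell seals a patch of bone, acidifies it with a proton pump and digests the collagen with cathepsin K. The ageing skeleton loses bone as resorption outpaces formation.

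The labels were checked first. Of the 10 osteoclast markers, which include Ctsk, Acp5, Mmp9, Calcr and Oscar, every one was above 1 TPM (a library's transcripts scaled to a common total after correction for length) in both groups. They summed to 18116 to 28145 TPM in the 20-month libraries and to 10530 to 12934 TPM in the 1-month libraries. Terc, a short RNA that lacks a poly(A) tail, was listed at 0, 0.516 and 0 TPM in the 20-month libraries and at 0, 0 and 1.13 TPM in the 1-month libraries, so it checks little here. The sex-linked genes divided the groups. Eif2s3y, a gene of the Y chromosome, was at 60.0 to 64.2 TPM in the 20-month libraries and at 0 in all 1-month libraries, while the X-inactivating RNA Xist, made in female cells, was at most 0.0226 TPM in the 20-month libraries and at 46.6 to 84.1 TPM in the 1-month libraries. Outside the unmarked 1-month wild-type group, Xist stayed at or under 0.254 TPM and Eif2s3y at or above 12.1 TPM in the other 27 libraries. Age and this sex-linked pattern therefore cannot be told apart in the comparison of 20 with 1 month. Among those 27 are the 1-month wild-type libraries marked gaiwei in their titles, so Y-linked RNA was present in them. The labels do not explain that mark, and only a total of calls is given against these libraries, near the end. The 6-month wild-type libraries share the Y-linked pattern of the 20-month ones, with Eif2s3y at 50.5 to 59.2 TPM.

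The files hold no read counts, so the depth is unknown; 12733 to 12937 genes reached 1 TPM in the 20-month libraries and 12105 to 12790 in the 1-month libraries. Of the 12614 genes tested, 2796 (22.2%) passed an adjusted p of 0.05 in limma's moderated test with Benjamini-Hochberg adjustment: 1147 (9.09%) were higher and 1649 (13.1%) lower at 20 months. Among them 319 were higher and 426 lower by 2-fold or more. In 5066 of the tested genes (40.2%) the groups did not overlap on TPM as deposited, so lack of overlap alone sets no gene apart. Higher genes made up 41.0% of the calls with the libraries rescaled to each other and 53.7% with TPM as deposited, where the median change of all genes moved to 0.10 on the log2 scale, against -0.02 after rescaling. Genes of the X chromosome were called as often as others: 28 of its 392 tested genes were higher and 59 lower (22.2% called), against 1110 and 1584 of 12151 on the autosomes (22.2% called). Replicate 1 of the 1-month group stood apart from its group. The genes were divided by summed exon length into 5 equal groups. Against the mean of its group's other libraries, replicate 1 had a median log2 deviation of -0.41 among the longest genes and 0.47 among the shortest. Measured alike, the 20-month libraries lay between -0.04 and 0.03. Calls moved with replicate 1 of the 1-month group. Among the longest genes 307 were higher and 177 lower at 20 months, against 145 and 155 without that library. Without it 1923 genes were called, of which 1753 were among the 2796, and all 2796 kept their direction. Values without it are given below for lists and named genes whose calls it moved.

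**Figure D1:**
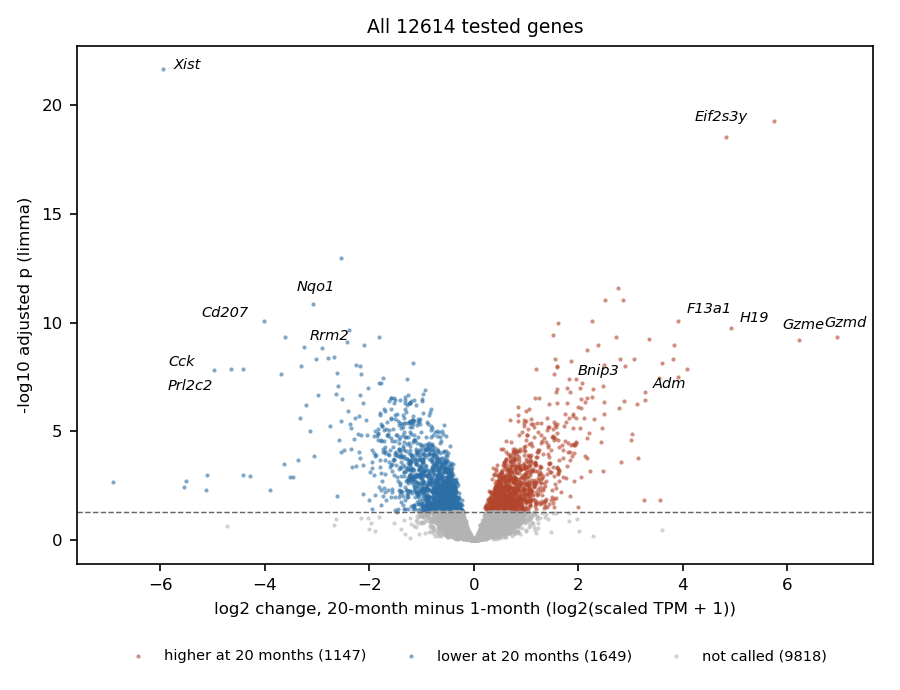
Log2 change at 20 months relative to 1 month (x axis, on log2(scaled TPM + 1)) against -log10 of limma's adjusted p (y axis) for the 12614 tested genes, 1147 called higher in red, 1649 called lower in blue and the rest in grey; the dashed line is an adjusted p of 0.05. The granzymes Gzmd and Gzme lie furthest right among the labelled genes, at 6.96 and 6.23.

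The largest rise among called genes of at least 5 TPM was in a family of proteases that cytotoxic lymphocytes are best known for. Granzymes are serine proteases stored in granules. Genes Gzmc to Gzmg form a cluster on mouse chromosome 14 beside the mast cell proteases, and in the mouse Gzmd, Gzme and Gzmg are also known from the granulated cells of the pregnant uterus. Gzmd (chr14:56129556-56132608, minus strand, protein coding, GRCm38) and its neighbour Gzme (chr14:56117626-56120625, minus strand, protein coding) are close copies: their longest transcripts are identical at 94.76% of aligned bases. The upstream 250 bases, shown here because both genes moved together and the copies are hard to tell apart by short reads, are alike at 238 positions, with 11 mismatches and 2 gap bases; capitals mark the bases that differ (RefSeq starts, GRCm38.p6, 5′ to 3′ on the gene's strand; chr14:56132594-56132843 and chr14:56120626-56120875).
Gzmd: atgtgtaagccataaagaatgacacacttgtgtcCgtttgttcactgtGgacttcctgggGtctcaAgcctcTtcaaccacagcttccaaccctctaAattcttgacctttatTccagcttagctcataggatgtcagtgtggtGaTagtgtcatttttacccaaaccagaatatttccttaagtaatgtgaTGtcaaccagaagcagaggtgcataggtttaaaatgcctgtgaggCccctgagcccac
Gzme: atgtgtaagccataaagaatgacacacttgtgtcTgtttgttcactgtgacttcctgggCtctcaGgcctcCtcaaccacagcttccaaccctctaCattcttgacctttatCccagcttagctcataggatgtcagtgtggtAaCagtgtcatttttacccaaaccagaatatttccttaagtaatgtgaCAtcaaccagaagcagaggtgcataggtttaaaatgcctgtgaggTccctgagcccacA

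Gzmd was at 253, 313 and 227 TPM in the 20-month libraries, against 1.29, 0.659 and 0.655 TPM in the 1-month libraries (log2 change 6.96 ± 0.50 SE on log2(scaled TPM + 1), adjusted p = 4.68e-10, limma). Gzme was at 361, 443 and 346 TPM in the 20-month libraries, against 4.23, 3.38 and 3.20 TPM in the 1-month libraries (6.23 ± 0.45, adjusted p = 6.08e-10). Every 20-month library held far more of both than any 1-month library, and the rule that chose them required groups without overlap. The split between 2 transcripts this similar is uncertain. In the 6-month libraries the levels lay between, at 44.2, 68.9 and 23.5 TPM for Gzmd and 85.6, 126 and 52.5 TPM for Gzme. In the wild-type cultures stopped at 2 days the order was the other way: Gzmd was at 43.2 to 71.8 TPM in the 3 libraries of 20 months, against 83.7 to 129 TPM in the 3 of 6 months, and Gzme at 92.3 to 148 TPM at 20 months, against 204 to 309 TPM at 6 months. In the 1-month Terc-/- libraries Gzmd was at 0 to 0.322 TPM and Gzme at 0 to 0.536 TPM, and these libraries have the Y-linked pattern, with Eif2s3y at 13.8 to 19.2 TPM.

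The less abundant granzymes of the cluster followed. Gzmc was at 17.2, 13.5 and 15.4 TPM and Gzmg at 10.0, 12.4 and 10.1 TPM in the 20-month libraries, and both were listed at 0 in all 1-month libraries, so no fold is given (adjusted p = 4.54e-09 and 5.69e-10). Gzmn, under the level needed for a test, was at 3.13, 3.97 and 3.79 TPM in the 20-month libraries and at 0, 0.268 and 0 TPM in the 1-month libraries. Gzmb, the granzyme of activated killer cells, was at 0.175 to 0.307 TPM in the 20-month libraries and 0 to 0.0759 TPM in the 1-month libraries, and Mcpt1, a mast cell protease, at 0.937, 0.814 and 0.822 TPM in the 20-month libraries and 0.181, 0.239 and 0.0852 TPM in the 1-month libraries. The groups did not overlap for either, and both were under the level needed for a test. Among the neighbours Mcpt8, a protease of mouse basophils, was at 34.6, 25.7 and 28.0 TPM in the 20-month libraries, against 2.85, 2.23 and 1.24 TPM in the 1-month libraries (3.15 ± 0.54, adjusted p = 1.67e-04), and Gzmf, Ctsg, Mcpt2 and Mcpt4 were listed at 0 in all 6 libraries, which shows no move either way.

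**Figure D2:**
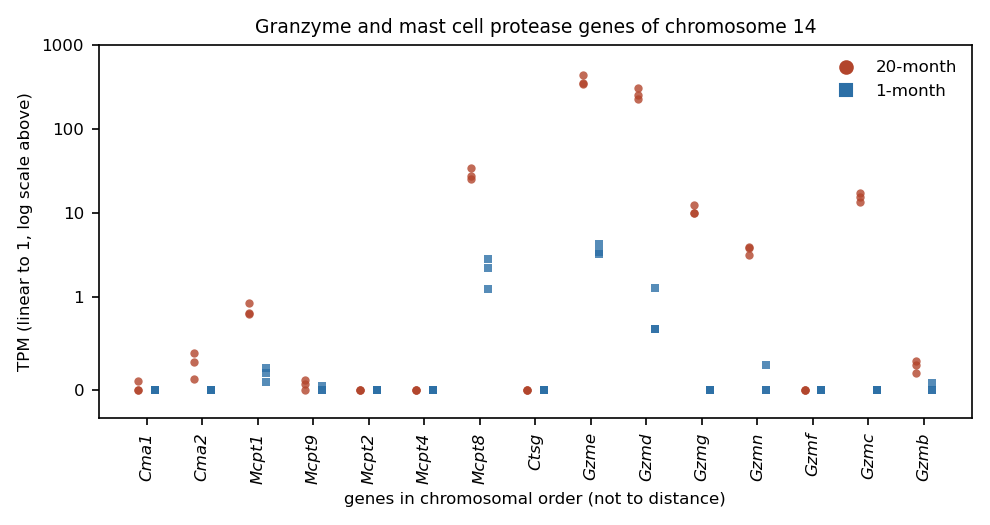
TPM (y axis, linear to 1 and logarithmic above) of the granzyme and mast cell protease genes of chromosome 14 in chromosomal order (x axis) in the 3 20-month libraries (red circles) and the 3 1-month libraries (blue squares). Gzme and Gzmd stand above 200 TPM in every 20-month library and under 5 TPM in every 1-month library, with Mcpt8, Gzmc, Gzmg and Gzmn also apart, while Gzmf and Ctsg lie at 0.

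Markers of the cells that usually carry these proteases were scarce. The 9 T and NK cell markers, among them Cd3e and Nkg7, summed to 1.26 to 1.99 TPM in the 20-month libraries and to 0.325 to 0.550 TPM in the 1-month libraries, with 6 and 7 of the 9 at 0 in every library of those groups. Nkg7 was at 0 in all 6 libraries and Cd3e was listed at 0.151 TPM in 1 of them. The 7 mast cell and basophil markers summed to 26.9 to 36.3 TPM in the 20-month libraries and to 5.70 to 7.35 TPM in the 1-month libraries, with Cpa3, Fcer1a and Mcpt4 at 0 in all 6 libraries. Most of this sum was Mcpt8 in the 20-month libraries and Gata2 in the 1-month libraries. Gata2, a factor of mast cells and basophils and of blood progenitors, fell to 1.22, 0.888 and 1.24 TPM in the 20-month libraries, against 3.32, 4.99 and 4.32 TPM in the 1-month libraries (-1.33 ± 0.22, adjusted p = 1.31e-04), so of the 2 tested markers 1 rose and 1 fell. In bulk RNA more cells of a type and more RNA per cell cannot be told apart, here and in each result below.

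Beside the granzymes, the 12 genes with the largest rises held proteins of the matrix and of low oxygen. H19, an imprinted long noncoding RNA abundant before birth, was at 62.7, 50.1 and 56.9 TPM in the 20-month libraries, against 0.723, 0.544 and 0.673 TPM in the 1-month libraries (4.93 ± 0.33, adjusted p = 1.80e-10). F13a1, the catalytic chain of the clotting factor XIII that macrophages also make, was at 95.7, 91.2 and 106 TPM in the 20-month libraries, against 3.49, 6.34 and 5.22 TPM in the 1-month libraries (3.92 ± 0.25, adjusted p = 8.86e-11). The remaining rises were those of Ndufa4l2 (4.08), a mitochondrial protein known as a target of hypoxia-inducible factor, Dkk3 (3.83), a secreted relative of the Wnt inhibitors, Itga11 (3.60), the α11 chain of a collagen-binding integrin, Ccn5 (3.28), a matricellular protein, and Adm (3.27). The 6-month level of H19, 4.21 to 13.02 TPM, and of F13a1, 9.21 to 30.2 TPM, again lay between.

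The 12 largest falls included those of receptors of myeloid and dendritic cells, proliferins and the peptide gene Cck. Cd207, or langerin, a lectin of Langerhans cells, was at 2.87, 2.17 and 1.81 TPM in the 20-month libraries, against 59.7, 43.2 and 47.4 TPM in the 1-month libraries (-4.02 ± 0.26, adjusted p = 8.86e-11). Clec7a, or dectin-1, the receptor for fungal β-glucan, was at 13.1, 11.96 and 18.1 TPM in the 20-month libraries, against 161, 230.1 and 135 TPM in the 1-month libraries (-3.62 ± 0.26, adjusted p = 4.84e-10), and Marco, a scavenger receptor of macrophages, fell by 3.37 on the log2 scale. The groups did not overlap for these receptors, which the rule that chose them required. The proliferins Prl2c2 and Prl2c3, whose transcripts are 99.52% identical and whose split is uncertain, were at 0.724 to 1.01 and 0.529 to 2.12 TPM in the 20-month libraries, against 32.8 to 52.8 and 39.5 to 58.1 TPM in the 1-month libraries. Cck, the gut and brain peptide cholecystokinin, was listed at 0 in all 20-month libraries and at 34.4, 48.8 and 20.1 TPM in the 1-month libraries. Falls of -3.34 to -3.21 included those of Mfap5, a protein of elastic microfibrils, Slc6a4, the serotonin transporter, and Id1. Hist1h4m, a histone H4 gene, was at 5.41 to 29.0 TPM in the 1-month wild-type libraries alone of the 4 groups given here, and Tmem254b shares its whole aligned transcript with Tmem254a and Tmem254c, so its fall to 0 in the 20-month libraries, against 10.0 to 14.1 TPM in the 1-month libraries, cannot be assigned to it. The 24 genes with the largest changes passed the threshold in 408 of 408 gene and setting pairs under 17 alternatives. They were chosen as called, without overlap and most changed in these same libraries, so this count is no separate support. A further alternative, with the gaiwei-marked 1-month libraries in place of the unmarked ones, was not followed for single genes or lists.

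**Figure D3:**
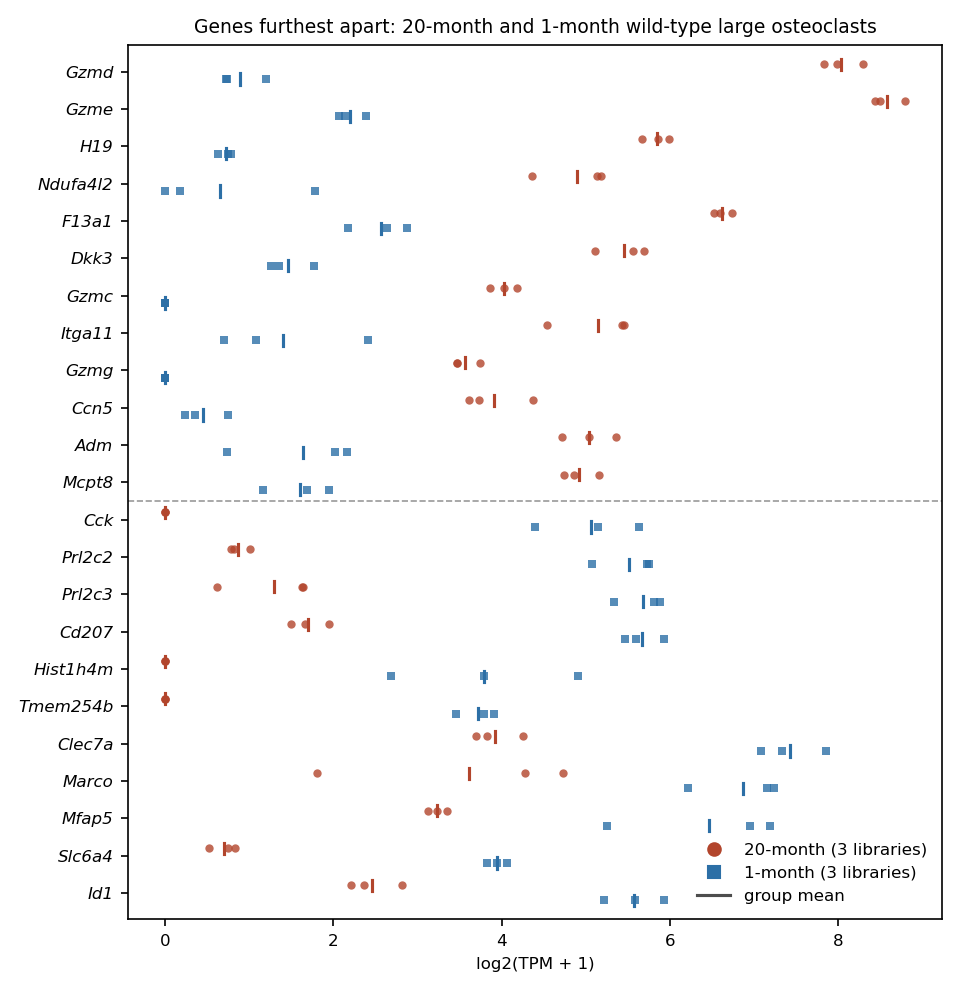
Log2(TPM + 1) (x axis) of the 12 genes with the largest rises (top) and of 11 of the 12 with the largest falls (bottom) at 20 months, each library a point (20-month red circles, 1-month blue squares) and each group mean a bar. The groups do not overlap for any gene, which the rule that chose the genes required.

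A few genes of the bone-resorbing machinery were higher at 20 months. Of 23 tested resorption genes 5 rose (21.7%) and 1 fell (4.35%), beside 9.09% and 13.1% of all tested genes. Their median change was 0.15 against -0.02 for all genes. Mmp9, the gelatinase of osteoclasts, was at 3147, 3809.5 and 2901 TPM in the 20-month libraries, against 1368, 1218 and 1348 TPM in the 1-month libraries (1.19 ± 0.30, adjusted p = 0.00621). The anion exchanger Slc4a2 (0.66), which supplies chloride for acid secretion, and the sodium/proton exchanger Slc9b2 (0.82) rose as well. So did the calcitonin receptor Calcr (0.73) and integrin β3, Itgb3 (0.82). Atp6v1h, a subunit of the proton pump, fell by 0.49 on the log2 scale. Its call held with each library of the 2 groups left out. It was lost with TPM as deposited (-0.36, adjusted p = 0.141, limma), with only the 2 groups in the fit (0.0619) and with the replicate block added to that fit (0.127). Ctsk, cathepsin K, was at 7791, 11089 and 6510.4 TPM in the 20-month libraries, against 4859, 3998 and 4626 TPM in the 1-month libraries (0.75 ± 0.27, adjusted p = 0.0511). The 2 groups did not overlap for Ctsk, which held for 40.2% of all tested genes. Its difference missed the threshold in the fit with all libraries. It passed without replicate 1 of the 1-month group (adjusted p = 0.0376), replicate 4 of the 20-month group (0.0359) or replicate 2 of the 6-month group (0.0364). Acp5, tartrate-resistant acid phosphatase, was at 7623, 12058 and 7908 TPM in the 20-month libraries, against 6068, 4652 and 5875 TPM in the 1-month libraries, a difference of 0.58 ± 0.31 (adjusted p = 0.190). Replicate 3 of the 20-month group was the highest of its group for Ctsk, Acp5 and Mmp9. With replicate number as a block and only the 2 groups in the fit, 1 gene was called higher. The small rises also rested on single libraries: 2 genes were called higher without replicate 3 of the 20-month group and 3 without replicate 3 of the 1-month group. Slc9b2 lost its call without either (adjusted p = 0.127 and 0.103), Calcr also (0.0995 and 0.0836) and without replicate 4 of the 20-month group (0.0556), and Itgb3 without replicate 3 of the 20-month group (0.0834) or replicate 1 of the 1-month group (0.0651).

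Among the signals of differentiation, 3 of 24 tested genes rose and 1 fell, beside 9.09% and 13.1% of all tested genes, so the count is no result about the list. Oscar, a collagen receptor that costimulates RANK signalling, was at 119, 175 and 112 TPM in the 20-month libraries, against 34.1, 26.3 and 39.0 TPM in the 1-month libraries (1.86 ± 0.28, adjusted p = 4.16e-05), with 64.5, 26.9 and 40.5 TPM at 6 months. Nfatc1, the master regulator, was at 71.1, 87.1 and 66.8 TPM in the 20-month libraries, against 31.3, 36.0 and 46.5 TPM in the 1-month libraries (0.84 ± 0.20, adjusted p = 0.00307). No 1-month library reached the lowest 20-month value of either gene. The adaptor Gab2 rose by 0.56 (adjusted p = 0.0448, and 0.295 without replicate 1 of the 1-month group) and the phospholipase Plcg2 fell by 0.33 on the log2 scale. Gab2 lost its call without any one of the 20-month libraries too (0.0769 to 0.130), and Plcg2 without replicate 1 or 3 of the 20-month group or replicate 3 of the 1-month group (0.0731 to 0.0795). Without replicate 2 of the 6-month group, which enters the shared variance, 6 genes of the list rose and 4 fell. The receptors themselves did not pass: RANK differed by 0.42 ± 0.21 (adjusted p = 0.170) and the M-CSF receptor Csf1r by 0.22 ± 0.16 (adjusted p = 0.341).

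Of 15 tested fusion genes 1 rose (6.67%) and 2 fell (13.3%), shares near those of all genes. Siglec15, a lectin of the fusing osteoclast, was at 13.1, 13.7 and 7.70 TPM in the 20-month libraries, against 3.45, 5.63 and 7.07 TPM in the 1-month libraries (0.85 ± 0.24, adjusted p = 0.0129, and 0.0770 without replicate 1 of the 1-month group, 0.0635 and 0.0783 without replicate 1 or 3 of the 20-month group). The tetraspanin Cd9, a brake on macrophage fusion that also marks lipid-laden macrophages, fell by 1.17 on the log2 scale (adjusted p = 3.07e-06) and the protease Adam8 by 0.42, a call lost without replicate 1 or 3 of the 1-month group (0.15 and 0.104) or replicate 3 of the 20-month group (0.252). Dcstamp, the fusion protein, was at 81.5, 93.7 and 62.6 TPM in the 20-month libraries, against 126, 113 and 124 TPM in the 1-month libraries, and its difference of -0.75 ± 0.30 did not pass (adjusted p = 0.0746). Ocstamp and Atp6v0d2, also needed for fusion, differed by -0.05 ± 0.23 and 0.04 ± 0.26.

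Among genes known to hold osteoclast formation back, the Id genes fell and the count of falls turned on the scaling. Of 17 tested negative regulators 6 fell (35.3%) and 1 rose (5.88%), beside 13.1% and 9.09% of all tested genes. Without replicate 1 of the 1-month group 4 fell and 1 rose. With TPM as deposited 3 fell and none rose, and the median was -0.03. The inhibitors of DNA binding, which block helix-loop-helix factors and respond to bone morphogenetic proteins, fell together: Id1 was at 3.61, 6.01 and 4.15 TPM in the 20-month libraries, against 60.1, 46.9 and 36.3 TPM in the 1-month libraries (-3.21 ± 0.36, adjusted p = 5.97e-07). Id2 fell by 1.34 and Id3 by 1.73 on the log2 scale, again with no overlap of the groups. Tnfrsf11b, osteoprotegerin, the decoy receptor for RANKL, fell by 1.05, the phosphatase Ptpn6 by 0.35 and the cytokine brake Socs3 by 0.58. The exception was Rbpj, the DNA-binding partner of Notch and a repressor of osteoclastogenesis, which rose by 0.67 ± 0.23; no member was called higher without replicate 4 of either group, and 3 were without replicate 2 of the 6-month group. For Id1 the 6-month libraries lay between, at 13.5, 30.5 and 26.9 TPM, and the 1-month Terc-/- libraries, at 65.9 to 72.5 TPM, were above every 1-month wild-type one.

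Genes of glycolysis and of the response to low oxygen were higher at 20 months. Of 21 tested members 15 rose (71.4%) and none fell, beside 9.09% and 13.1% of all tested genes. The median change was 0.76, and 16 rose without replicate 1 of the 1-month group. Over the 17 alternatives followed for lists, between 10 and 20 rose. Cells that lack oxygen stabilise hypoxia-inducible factor, which binds a short core sequence near its targets. The upstream stretches of Bnip3 and Adm, 2 of the rising members with such cores, are shown with every ACGTG or GCGTG, on either strand, in capitals (130 bases before the RefSeq start, GRCm38.p6; chr7:138909507-138909636, minus strand, and chr7:110627527-110627656, plus strand).
Bnip3: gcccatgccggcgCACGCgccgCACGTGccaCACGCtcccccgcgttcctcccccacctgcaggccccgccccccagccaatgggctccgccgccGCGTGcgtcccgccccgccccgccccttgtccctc
Adm: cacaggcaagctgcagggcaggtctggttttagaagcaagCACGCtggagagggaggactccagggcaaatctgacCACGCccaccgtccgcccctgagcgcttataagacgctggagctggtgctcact
At least 1 such core stood within 250 upstream bases of 14 of the 15 rising members (93.3%), against 5864 of 9518 tested genes with a promoter in the table (61.6%) and 11226 of 27025 of all genes in it (41.5%). A core also stood before all 6 tested members that did not rise (20 of 21 in all, 95.2%), so within the list it does not separate the genes that rose. In Bnip3 an ACGTG on each strand overlaps within the palindrome CACGTG, 107 and 108 bases before the start. A match is a string of letters and not a bound site.

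Bnip3, which directs mitochondria to autophagy, was at 417, 376 and 256 TPM in the 20-month libraries, against 77.7, 84.2 and 102 TPM in the 1-month libraries (1.82 ± 0.17, adjusted p = 3.89e-08). Egln3, the oxygen-sensing prolyl hydroxylase, was at 88.4, 69.0 and 55.4 TPM in the 20-month libraries, against 12.6, 15.7 and 14.6 TPM in the 1-month libraries (2.08 ± 0.20, adjusted p = 6.15e-08). Adm, adrenomedullin, a peptide that widens vessels, was at 40.2, 31.9 and 25.3 TPM in the 20-month libraries, against 0.666, 3.46 and 3.07 TPM in the 1-month libraries (3.27 ± 0.33, adjusted p = 1.51e-07). In each of these genes the highest 1-month library lay below the lowest 20-month one, which for Adm the rule that chose it required. Replicate 4 was the lowest of the 20-month group in each. Vegfa, the vascular growth factor, was at 709, 679 and 602 TPM in the 20-month libraries, against 169, 287 and 277 TPM in the 1-month libraries (1.34 ± 0.19), and Pdk1, which turns pyruvate away from mitochondria, rose by 1.53. The glycolytic step enzymes moved less: Gapdh rose by 0.62 and Pgk1 by 0.76, while Ldha differed by 0.26 ± 0.16 (adjusted p = 0.276). Nuclear genes of oxidative phosphorylation gave 3 falls (5.56%) and no rise among 54, under the 13.1% of all tested genes that fell. They gave 0 falls without replicate 1 of the 1-month group and 21 without replicate 2 of the 6-month group.

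Genes that answer amino acid shortage and the unfolded protein response through the factor ATF4 rose in 10 of 16 tested members (62.5%). Of the list 1 fell (6.25%), where 9.09% of all tested genes rose and 13.1% fell. The median was 0.55, and 9 rose without replicate 1 of the 1-month group. Ddit3, or CHOP, was at 301, 221 and 322 TPM in the 20-month libraries, against 60.5, 91.3 and 98.7 TPM in the 1-month libraries (1.62 ± 0.31, adjusted p = 5.54e-04). Trib3, a pseudokinase induced by CHOP, was at 36.5, 36.0 and 42.4 TPM in the 20-month libraries, against 6.51, 9.52 and 11.4 TPM in the 1-month libraries (1.85 ± 0.30, adjusted p = 8.52e-05), and Cth, which makes cysteine, rose by 1.82 and the glutathione-degrading Chac1 by 1.40. The 3 groups of wild-type age did not form a series here: the 6-month libraries held Cth at 1.44 to 3.21 TPM, level with or under the 1-month values of 2.33 to 7.97 TPM. The cystine transporter Slc7a11 was the member that fell, by 1.18 on the log2 scale, with overlapping groups. Atf4 itself differed by 0.30 ± 0.11 (adjusted p = 0.0567).

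Genes of cell division fell without exception. All 20 tested mitosis genes fell, beside 13.1% of all tested genes, with a median of -1.48 and a range of -1.90 to -1.002. Without replicate 1 of the 1-month group 20 fell. Under the 17 alternatives followed for lists, 19 or 20 fell. Multinucleated osteoclasts do not divide, while the macrophages they come from do. Promoters of mitotic genes commonly carry several CCAAT boxes, bound by the factor NF-Y, and 3 are shown with each CCAAT, on the gene's strand, in capitals (130 bases before the RefSeq start, GRCm38.p6, all on the minus strand; chr2:172370571-172370700, chr4:118437344-118437473 and chr9:70421555-70421684).
Aurka: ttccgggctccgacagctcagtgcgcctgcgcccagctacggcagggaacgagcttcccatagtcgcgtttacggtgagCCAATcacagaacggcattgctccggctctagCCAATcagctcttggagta
Cdc20: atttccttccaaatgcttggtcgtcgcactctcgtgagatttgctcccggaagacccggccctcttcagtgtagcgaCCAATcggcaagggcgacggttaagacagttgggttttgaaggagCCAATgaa
Ccnb2: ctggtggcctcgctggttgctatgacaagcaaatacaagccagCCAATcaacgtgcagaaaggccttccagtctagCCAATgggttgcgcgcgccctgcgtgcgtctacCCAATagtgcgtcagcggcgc
Searched on both strands over 250 upstream bases, 2 or more CCAAT stood before 9 of the 16 mitosis genes with a promoter in the table (56.2%), against 15.2% of the tested genes and 11.5% of all genes in it. All 16 fell, so this share describes the list and cannot separate genes that fell from others. Here too a match is not a bound site.

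Aurka, the kinase of the spindle poles, was at 5.18, 4.35 and 7.02 TPM in the 20-month libraries, against 21.1, 19.5 and 19.5 TPM in the 1-month libraries (-1.81 ± 0.17, adjusted p = 6.01e-08). Cdk1, the mitotic kinase, was at 37.2, 38.3 and 37.0 TPM in the 20-month libraries, against 99.2, 86.8 and 105 TPM in the 1-month libraries (-1.47 ± 0.18, adjusted p = 1.59e-06). The 6-month libraries, with Aurka at 26.4, 14.3 and 31.0 TPM, lay on both sides of the 1-month values and above every 20-month one. Cyclin B2, Ccnb2, fell by 1.79, Cdc20, which activates the anaphase-promoting complex, by 1.75, and the survivin gene Birc5 by 1.90 on the log2 scale. Of 22 tested genes of DNA replication 17 fell (77.3%) and none rose, beside 13.1% and 9.09% of all tested genes. Without replicate 1 of the 1-month group 14 fell. Rrm2, the inducible subunit that makes deoxynucleotides, was at 10.6, 8.38 and 11.3 TPM in the 20-month libraries, against 42.3, 44.6 and 40.8 TPM in the 1-month libraries (-2.10 ± 0.16, adjusted p = 1.03e-09), and Tyms (-1.41), Mcm10 (-1.41), Fen1 (-1.17) and Pcna (-0.92) fell too. In 24 genes of DNA repair 4 fell and 1 rose, near the share of all genes, 3 fell and none rose without replicate 1 of the 1-month group, and 2 fell without replicate 3 of the 20-month group.

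**Figure D4:**
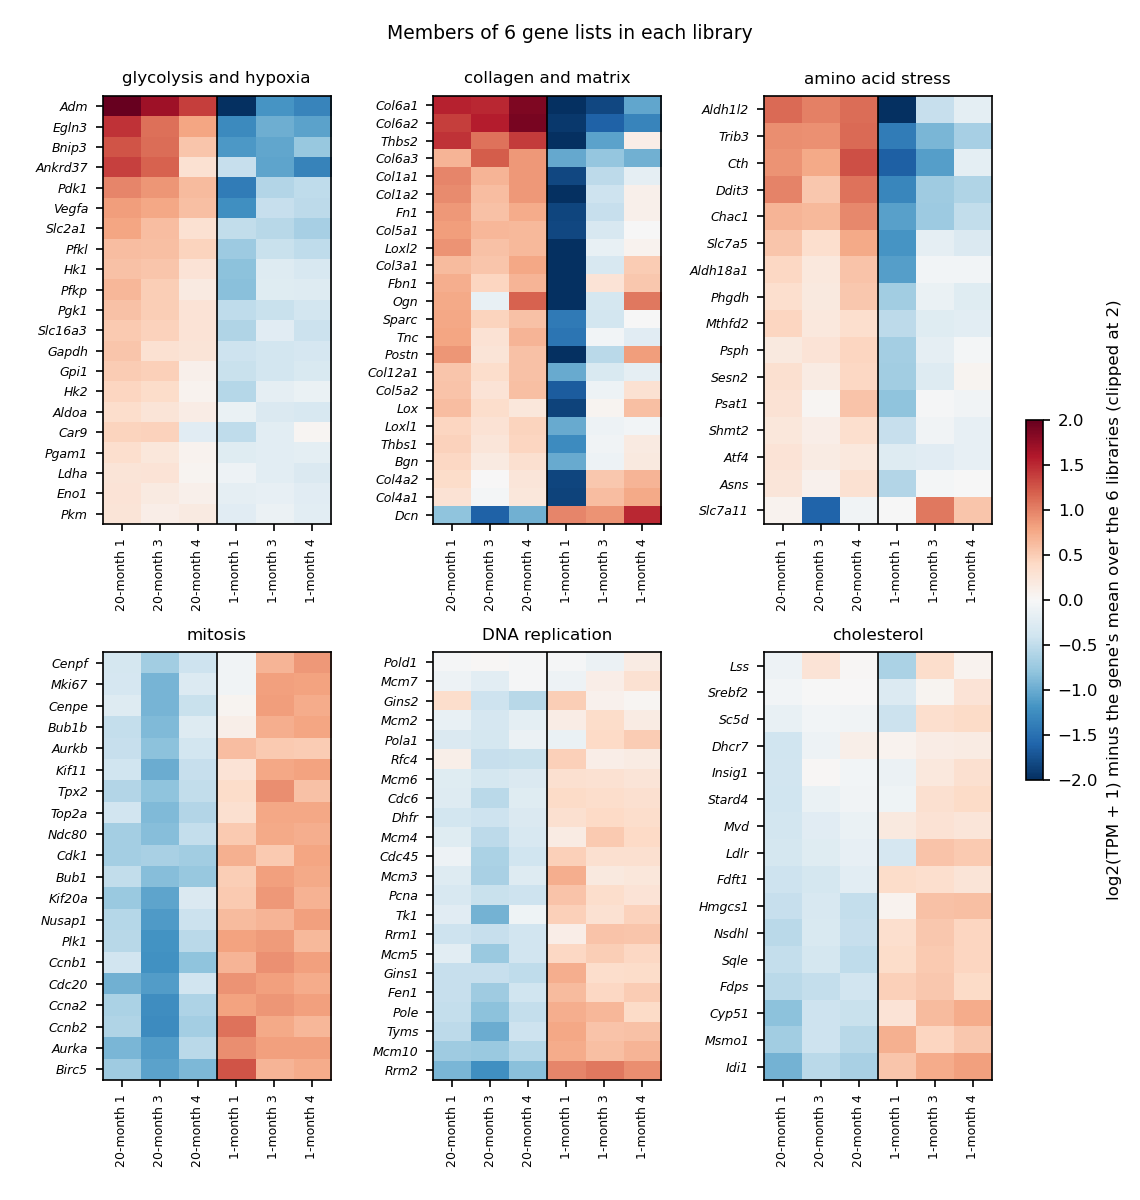
Log2(TPM + 1) of each member minus its mean over the 6 libraries (colour, clipped at 2) for reported members of 6 gene lists, with the 20-month libraries left of the line and the 1-month libraries right of it. The mitosis and replication lists are low across the 20-month libraries, glycolysis and hypoxia are high, and replicate 1 of the 1-month group is the lowest library for most collagen and matrix genes.

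Genes of the collagenous matrix were higher at 20 months, by an amount that turned on replicate 1 of the 1-month group. Of 24 tested members 11 rose (45.8%) and 1 fell (4.17%), beside 9.09% and 13.1% of all tested genes. The median was 1.07. Without replicate 1 of the 1-month group 5 rose and the median was 0.63, and without replicate 4 of that group 17 rose. Col1a1, the main collagen of bone, was at 1634, 1325 and 1511 TPM in the 20-month libraries, against 233, 577 and 735 TPM in the 1-month libraries (1.55 ± 0.36, adjusted p = 0.00263; 1.18 and 0.0320 without that replicate). Col6a1, a chain of microfibrillar collagen, was at 30.5, 29.8 and 38.4 TPM in the 20-month libraries, against 1.63, 2.05 and 4.24 TPM in the 1-month libraries (3.13 ± 0.35, adjusted p = 5.61e-07), and Col6a2 (3.07), Thbs2 (2.48), a thrombospondin, and fibronectin, Fn1 (1.32), rose. The groups did not overlap for any of these, and the call of Fn1 was lost without replicate 1 (adjusted p = 0.0570). Dcn, the proteoglycan decorin, was the member that fell, to 1.18, 0.248 and 0.951 TPM in the 20-month libraries, against 6.47, 6.12 and 9.85 TPM in the 1-month libraries.

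The list of 15 stromal and osteoblast markers shares 6 genes with the matrix list, so its sum, 3475 to 4426 TPM in the 20-month libraries and 598 to 2689 TPM in the 1-month libraries, largely restates the collagens. Its median was 1.17, and 0.54 without replicate 1 of the 1-month group. The other 9 markers summed to 73.7 to 99.8 TPM in the 20-month libraries and to 22.9 to 44.5 TPM in the 1-month libraries, with 1 and 2 of the 9 at 0 in every library of those groups, and of the 4 that were tested (Runx2, Cxcl12, Pdgfra and Pdgfrb) 2 rose. The chemokine Cxcl12 rose by 1.23 ± 0.37 (adjusted p = 0.0179). Pdgfrb, a receptor of pericytes and fibroblasts, was at 49.6, 42.1 and 49.8 TPM in the 20-month libraries, against 6.54, 16.5 and 20.6 TPM in the 1-month libraries (1.63 ± 0.26, adjusted p = 5.43e-05). Of 15 tested genes of contractile fibroblasts 5 rose (33.3%) and 1 fell (6.67%), beside 9.09% and 13.1% of all tested genes. Without replicate 1 of the 1-month group 3 rose and 0 fell, and 3 rose without replicate 1 of the 20-month group. The part of these cells in the results on matrix genes was not tested. Col1a1 was far lower in the 1-month Terc-/- libraries, at 28.1 to 67.5 TPM.

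Genes of lipid handling were lower at 20 months. Of 18 tested genes of cholesterol synthesis 11 fell (61.1%) and none rose, beside 13.1% and 9.09% of all tested genes. Their median was -0.70, and 11 fell without replicate 1 of the 1-month group. Idi1, the isopentenyl diphosphate isomerase, was at 11.1, 15.0 and 13.9 TPM in the 20-month libraries, against 33.2, 37.7 and 39.9 TPM in the 1-month libraries (-1.53 ± 0.17, adjusted p = 5.19e-07), and Cyp51 and Msmo1, which act late in the pathway, fell by 1.23 and 1.24 on the log2 scale. Of 15 genes of lipid-associated macrophages 10 fell (66.7%) and 1 rose (6.67%), beside the same 13.1% and 9.09%. Without replicate 1 of the 1-month group 7 fell. Gpnmb, a membrane glycoprotein of such macrophages and of osteoclasts, was at 569, 673 and 789 TPM in the 20-month libraries, against 1933, 2224 and 1918 TPM in the 1-month libraries (-1.72 ± 0.20, adjusted p = 9.40e-07), and lipoprotein lipase, Lpl, fell by 2.37 and the elastase Mmp12 by 2.35. The 6-month values of Gpnmb, 238 to 866 TPM, lay on both sides of those at 20 months. Apoe, the lipid carrier, went against its list, at 10317, 17486 and 16545 TPM in the 20-month libraries, against 5889, 4927 and 5327 TPM in the 1-month libraries (1.29 ± 0.26, adjusted p = 9.25e-04).

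Antioxidant genes fell in 8 of 14 tested members (57.1%) and rose in none, beside 13.1% and 9.09% of all tested genes. Without replicate 1 of the 1-month group 7 fell. Nqo1, a quinone reductase and a standard target of the factor NRF2, was at 5.55, 3.54 and 4.31 TPM in the 20-month libraries, against 35.2, 46.2 and 44.8 TPM in the 1-month libraries (-3.07 ± 0.18, adjusted p = 1.34e-11), the smallest adjusted p among the genes named here apart from the sex-linked ones. Its 6-month level was 7.71 to 9.43 TPM and its 1-month Terc-/- level 24.8 to 34.2 TPM. Peroxiredoxin 1, Prdx1, fell to 1469, 978 and 1439 TPM in the 20-month libraries, against 3713, 3420.3 and 2803 TPM in the 1-month libraries. Thioredoxin reductase, Txnrd1, fell by 1.07 and sulfiredoxin, Srxn1, by 0.97 on the log2 scale. Of 28 lysosomal genes 8 fell (28.6%) and 2 rose (7.14%), beside 13.1% and 9.09% of all tested genes. Without replicate 1 of the 1-month group 4 fell and 4 rose, and over all the libraries left out 0 to 4 rose. Cathepsin L, Ctsl, was at 1042, 1013 and 1019 TPM in the 20-month libraries, against 2399.8, 2356 and 2220.0 TPM in the 1-month libraries, a fall of 1.31 ± 0.14 where Ctsk leaned the other way.

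Many inflammatory and immune genes were lower at 20 months. Of 27 inflammatory genes 13 fell (48.1%, beside 13.1% of all tested genes) and none rose, with a median of -1.06. Without replicate 1 of the 1-month group 9 fell. Without replicate 3 of the 20-month group 7 fell, the lowest count of the 17 alternatives followed for lists. Tnf was at 14.6, 6.85 and 7.56 TPM in the 20-month libraries, against 44.0, 34.4 and 22.8 TPM in the 1-month libraries (-1.84 ± 0.26, adjusted p = 1.30e-05). Il6 was at 3.51, 0.604 and 1.45 TPM in the 20-month libraries, against 6.86, 9.85 and 10.1 TPM in the 1-month libraries (-1.96 ± 0.32), and the pattern receptor Tlr2 fell by 1.15. Il1b overlapped between the groups, at 99.8, 21.8 and 39.4 TPM in the 20-month libraries and 81.9, 72.8 and 44.1 TPM in the 1-month libraries (adjusted p = 0.393).

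Of 35 genes of the type I interferon response 11 fell (31.4%) and 2 rose (5.71%), beside 13.1% and 9.09% of all tested genes. Without replicate 1 of the 1-month group 8 fell and 2 rose, and 1 rose without replicate 1 or 3 of the 20-month group or replicate 3 of the 1-month group. Cxcl10, a chemokine, was at 4.22, 1.92 and 3.27 TPM in the 20-month libraries, against 17.5, 26.5 and 23.1 TPM in the 1-month libraries (-2.59 ± 0.26, adjusted p = 8.49e-08), and the antiviral Rsad2 fell by 1.73. Ifi44 ran the other way, at 26.4, 23.6 and 27.4 TPM in the 20-month libraries, against 3.66, 5.43 and 5.99 TPM in the 1-month libraries (2.04 ± 0.20, adjusted p = 1.06e-07). Of 8 tested MHC class II genes 6 fell (75.0%, beside the same 13.1%) and none rose. Without replicate 1 of the 1-month group 4 fell, and 3 fell without replicate 3 or 4 of the 20-month group. Cd74, the invariant chain that guards MHC class II, was at 202, 67.4 and 86.1 TPM in the 20-month libraries, against 331, 257 and 282 TPM in the 1-month libraries (-1.57 ± 0.39, adjusted p = 0.00441). The 14 tested MHC class I genes gave 1 rise and 1 fall, and 2 rises and no fall without replicate 1 of the 1-month group.

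The sums of dendritic cell and neutrophil markers were lower at 20 months, as many of these immune genes were. The sums of B and plasma cell markers, of T or NK markers and of basophil or mast cell markers were higher, from few genes. Most of the basophil or mast cell sum in the 20-month libraries was Mcpt8, while Gata2 fell. The T or NK sum reached at most 1.99 TPM in the 20-month libraries, with 8 of 9 markers under 1 TPM and none tested. Of the 8 B and plasma cell markers 5 were under 1 TPM in every 20-month library. The 8 dendritic cell markers summed to 9.82 to 16.0 TPM in the 20-month libraries and to 36.0 to 44.6 TPM in the 1-month libraries, mostly Itgax, which fell by 2.15 on the log2 scale, with 2 and 1 of the 8 at 0 in every library. The 11 neutrophil markers summed to 11.4 to 35.3 TPM in the 20-month libraries and to 47.1 to 127 TPM in the 1-month libraries, with 6 and 4 of the 11 at 0 in every library and S100a8 down by 2.01, a call lost without replicate 1 or 3 of the 1-month group or replicate 3 of the 20-month group (adjusted p = 0.0617 to 0.124). The 10 macrophage markers were all above 1 TPM. They summed to 15828 to 23738 TPM in the 20-month libraries and to 25019 to 30764 TPM in the 1-month libraries. Of these markers 1 rose and 1 fell, with a median change of 0.17 on the log2 scale. Within them Lyz2, lysozyme, fell by 0.82 and the mannose receptor Mrc1 rose to 38.0, 43.6 and 50.8 TPM in the 20-month libraries, against 6.70, 10.3 and 11.1 TPM in the 1-month libraries (2.01 ± 0.23, adjusted p = 7.40e-07). The part of these cells in the results on immune genes was not tested.

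Genes that mark senescent cells in other tissues moved both ways, by counts that turned on replicate 1 of the 1-month group. Of 26 tested members of the senescence and secretory list 3 rose (11.5%) and 6 fell (23.1%), beside 9.09% and 13.1% of all tested genes. Without replicate 1 of the 1-month group 6 rose and 5 fell, where 818 and 1105 of all 12614 genes did. The median of the list was -0.31, and -0.29 without that replicate. Cdkn2a, whose products p16 and p19 accumulate with age in many mouse tissues, was at 78.8, 62.9 and 85.5 TPM in the 20-month libraries, against 128, 152 and 197 TPM in the 1-month libraries (-1.18 ± 0.26, adjusted p = 0.00156; 0.00595 without replicate 1 of the 1-month group). Every 20-month library lay under every 1-month one, and the 6-month level was 58.5 to 109.5 TPM. Cdkn1a, or p21, was at 307, 233 and 248 TPM in the 20-month libraries and 199, 233 and 277 TPM in the 1-month libraries, with a difference of 0.02 ± 0.11. The members that rose included Vegfa and the cell cycle inhibitor Cdkn1b (0.51), and those that fell included Mmp10 (-1.79), the urokinase receptor Plaur (-1.04) and lamin B1, Lmnb1 (-0.86), whose loss is itself a sign of senescence. Of 24 tested p53 targets 1 rose and 3 fell (3 and 3 without that replicate), and of 16 tested telomere genes none rose and 2 fell, the shelterin protein Tinf2 by 0.37 and dyskerin, Dkc1, by 0.61, with neither call kept without replicate 1 of the 1-month group or replicate 1 or 3 of the 20-month group, and 4 called without replicate 2 of the 6-month group. The shares that fell in both lists were near the 13.1% of all genes.

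**Figure D5:**
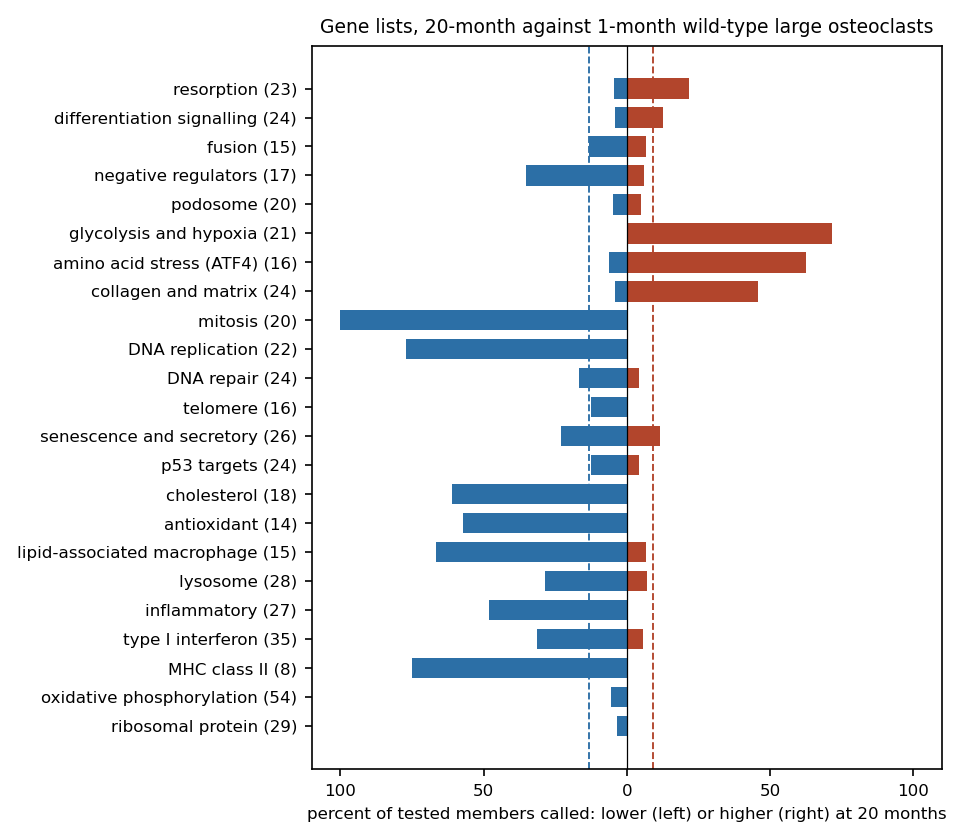
Percent of the tested members of each gene list (number tested in brackets) called lower (bars to the left) or higher (bars to the right) at 20 months relative to 1 month; dashed lines are the shares of all tested genes, 13.1% lower and 9.09% higher. Mitosis reaches 100% lower, and glycolysis and hypoxia has 15 of 21 members higher and none lower.

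Because the 6-month wild-type libraries carry the Y-linked pattern too, the 20-month libraries were also set against them. This second comparison uses the same 20-month libraries, so the 2 sets of calls are not independent, and values are only put side by side. Of the 12614 genes 3480 (27.6%) were called, 1600 (12.7%) higher and 1880 (14.9%) lower at 20 months; higher genes were 46.0% of these calls, and 71.2% with TPM as deposited, where the median of all genes moved to 0.27. The count rested on the fit over all 10 groups: 165 genes were called with only the 2 groups in the fit, and 6-month replicate 2 is a library in which long genes are low. Without that library 2073 genes were called.

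For the granzymes the 20-month libraries were above the 6-month ones as well, by 2.33 ± 0.50 for Gzmd (adjusted p = 0.00165) and 1.90 ± 0.45 for Gzme (adjusted p = 0.00423), and H19 was higher by 2.36 ± 0.33. All 20 mitosis genes were lower than at 6 months, with Aurka at -2.14 ± 0.17 (adjusted p = 1.35e-08), and 20 of 22 replication genes were lower. Over all tested genes 14.9% were lower and 12.7% higher than at 6 months. Of the glycolysis and hypoxia genes 11 of 21 were higher and none lower, with Bnip3 at 1.25 ± 0.17 (adjusted p = 1.60e-05). Oscar was higher by 1.37 ± 0.28 and Ctsk by 0.81 ± 0.27 (adjusted p = 0.0321), whereas Mmp9 differed by 0.49 ± 0.30 (adjusted p = 0.216). Gpnmb differed by 0.22 ± 0.20 and Cdkn2a by -0.37 ± 0.26, neither of which passed. The matrix list had 17 of 24 genes higher and none lower, while the interferon list had 6 higher and 3 lower.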

How the data were processed

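Poly(A) RNA of 30 libraries was sequenced on the Illumina NovaSeq platform, per the labels. The authors deposited tables of TPM by age and genotype, in which the values of each library sum to 1000000; the headers name only the libraries, so the unit was read from the values. The submitters' processing notes name HTSeq and mm10; the aligner and versions are not given in the sources used here. Without counts the depth of each library is unknown, and no counting interval can be given. Because the tables were deposited separately, the libraries were rescaled together from unweighted trimmed means (30% of ratios and 5% of levels trimmed), each on log2(scaled TPM + 1); a fold change on this scale understates changes of low genes. TPM printed per library are as deposited.

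Only genes averaging 1 TPM or more across the 30 libraries were kept (12614 of 45706 listed genes; 20240 were at 0 in every library), and tested with limma 3.58.1 in R 4.3.3: 10 group means, moderated variances with a trend and robust fitting, Benjamini-Hochberg adjustment over all tested genes. Errors after ± are standard errors of that fit. Symbols were found for 45143 gene identifiers; 563 had none. Positions are from the GENCODE annotation of GRCm38, promoters from RefSeq on GRCm38.p6. The fit was tested on simulated data.

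The comparison and the gene lists were chosen with earlier results of these data known. Named genes were the 12 largest rises and 12 largest falls among called genes averaging 5 TPM or more across the 6 libraries, with groups that do not overlap and no predicted or sex-linked genes; then up to 4 members with the smallest p in a list, members of the resorption, differentiation and fusion lists, label checks and the highest marker genes. A few genes that the rule names are not reported here. Gene names outside this rule were chosen after their values were seen. Alternatives covered scaling, pseudocount (0.1), filter, variance model, replicate block, libraries in the fit and leaving out each library.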

Additional observations from a re-analysis of the deposited data

How the results depend on the processing

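The 2796 calls at 20 against 1 month stayed within 1.5 times under TPM as deposited (2324), no filter (3039), scaling by median ratios (2773), a pseudocount of 0.1 (2644), one variance per group (2728) and only the 2 groups in the fit (1882). Leaving out 1 library gave 1923 (without 1-month replicate 1) to 4225 calls (without 6-month replicate 2). The same replicate numbers did not pair the samples: their deviations correlated at -0.02, -0.13 and 0.03. The replicate block gave 2821 calls with all groups, and 1002 with only the 2 groups compared, 406 higher and 596 lower. With the 1-month libraries marked gaiwei in their titles, a mark the labels do not explain, in place of the unmarked ones, 7385 genes were called. Against 6 months the 3480 calls became 240 with one variance per group, 165 with only the 2 groups compared, 2825 with the replicate block, and 2255 with the unmarked libraries only, an alternative chosen after seeing the data; leaving out 1 library gave 2073 (without 6-month replicate 2) to 6374 (without 6-month replicate 1). The cause was not tested. Of 148 genes followed through 2515 gene and setting pairs, 2324 kept direction and side of the threshold, 182 lost the call, 9 gained it and 0 reversed. The swap to the gaiwei-marked libraries was not among these pairs. Where a list had few calls, leaving out 1 library changed its count: over the libraries left out, the iron list gave 2 to 4 falls (2 without 20-month replicate 3), growth factor signalling 2 to 5 rises (2 without 1-month replicate 1 or 20-month replicate 4), matrix proteases 1 to 5 rises (1 without 1-month replicate 1), immediate early genes 2 to 6 falls (2 without 1-month replicate 1), the dendritic and neutrophil markers 1 or 2 falls each, the endothelial markers 1 or 2 falls, and the podosome, MHC class I, ribosomal protein and mitochondrially encoded lists no fall in at least 1 case. The osteoclast markers gave 3 rises without 20-month replicate 3, against 5. Depth is unknown, so it cannot be said which low genes it limits.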

Other observations

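Counts in the smaller lists not described above are read beside the 9.09% of all genes called higher and the 13.1% called lower; those of the podosome, coupling factor, complement, ribosomal protein, mitochondrially encoded and X-escape lists are near or under these shares. Of 9 tested imprinted genes 2 rose and 1 fell: beside H19, the growth-signalling adaptor Grb10 was at 41.0, 38.0 and 45.5 TPM in the 20-month libraries, against 5.88, 12.8 and 10.5 TPM in the 1-month libraries (1.91 ± 0.23, adjusted p = 2.03e-06, limma), and the cell cycle inhibitor Cdkn1c fell by 0.997 on the log2 scale. Igf2, which neighbours H19 and is not expressed from the same parental copy, was at 0.478 to 1.82 TPM in the 20-month libraries and 0.207 to 0.410 TPM in the 1-month libraries, without overlap and under the level needed for a test. Of 12 tested iron genes 1 rose and 4 fell, among them the ferritin light chain Ftl1, at 9064, 7957 and 9742 TPM in the 20-month libraries, against 24011, 18225 and 17219 TPM in the 1-month libraries (-1.27 ± 0.25, adjusted p = 5.54e-04), while the metalloreductase Steap4 rose by 1.88. Of 13 tested genes of insulin-like growth factor and TGF-β signalling 4 rose and 4 fell: Igfbp6 fell by 3.13, Igf1 by 1.16 and the matrix protein Tgfbi by 1.07 on the log2 scale, and the activin subunit Inhbb rose by 1.23.

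Of 17 tested matrix proteases 3 rose and 5 fell. Adamts4, an aggrecanase, was at 72.9, 56.0 and 44.5 TPM in the 20-month libraries, against 2.18, 8.46 and 11.6 TPM in the 1-month libraries (2.87 ± 0.31, adjusted p = 4.14e-07), while urokinase, Plau, fell by 1.14. Of 12 tested factors that couple resorption to bone formation 1 rose, the guidance protein Slit3 (0.97), and 1 fell, Igf1. Of 20 podosome genes 1 rose and 1 fell, of 12 complement genes 1 rose and 2 fell, and of 17 immediate early and heat shock genes 3 rose and 5 fell, with Egr1 up by 1.56 and Egr2 down by 1.26. Ribosomal protein genes gave 1 fall among 29 and mitochondrially encoded genes 1 among 13. Of 7 tested genes that escape X inactivation 1 fell, Eif2s3x, by 0.97 on the log2 scale.

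The remaining marker lists had few tested members: 1 of 2 rose for B and plasma cells, 2 of 2 fell for endothelial cells, 0 of 3 were called for erythroid cells and megakaryocytes, and no adipocyte marker was tested. B and plasma cell markers summed to 4.31 to 9.58 TPM in the 20-month libraries and to 1.63 to 2.42 TPM in the 1-month libraries, with the antibody light chain Igkc at 5.55, 1.85 and 3.53 TPM in the 20-month libraries, against 0.263, 0.359 and 0 TPM in the 1-month libraries. Endothelial markers summed to 2.13 to 3.08 TPM in the 20-month libraries and to 3.0045 to 4.88 TPM in the 1-month libraries, and adipocyte markers to at most 0.0996 TPM in the 20-month libraries and 0.767 TPM in the 1-month libraries. Erythroid and megakaryocyte markers summed to 474 to 631 TPM in the 20-month libraries and to 455 to 944 TPM in the 1-month libraries, mostly Pf4, which macrophages also make.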
